A study of Mus spretus with 8 samples.

Results

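Cyp2c genes encode a subfamily of cytochrome P450 enzymes, and 10 of them (Cyp2c29, Cyp2c37, Cyp2c38, Cyp2c39, Cyp2c50, Cyp2c54, Cyp2c55, Cyp2c67, Cyp2c68 and Cyp2c70) are described here in livers of male mice that had eaten p,p'-DDE. They were chosen by name, and every probe that the annotation of the array assigns to 1 of these symbols was taken, which gave 24 of the 42957 probes and 10 of the 22471 named genes. The DDE group had 4 Mus spretus mice of the inbred, wild-derived SPRET/EiJ strain, which were 7 weeks old and ate Harlan diet that held p,p'-DDE, a persistent breakdown product of the insecticide DDT, at 450 mg/kg and in corn oil for 30 days. The control group had 4 mice of the same strain and sex, of unstated age, on Harlan diet with corn oil. Liver RNA from each mouse was hybridised to a 1-colour Agilent array, so n = 4 in each group and every value below is a log2 signal as deposited by the authors.

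Cytochrome P450 enzymes of this subfamily sit in the endoplasmic reticulum of hepatocytes and add oxygen to drugs, steroids and fatty acids. Several mouse members are epoxygenases, which turn arachidonic acid into epoxyeicosatrienoic acids, lipid mediators that soluble epoxide hydrolase then inactivates. Transcription of many Cyp2c genes is driven by the nuclear receptors CAR (gene Nr1i3) and PXR (gene Nr1i2), which respond to foreign compounds, and the set of Cyp2c genes used by the liver also differs between male and female mice. Cyp2c70 has a separate role, as in mice its enzyme makes the muricholic acids, bile acids that are typical of this species.

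The livers differed in Cyp2c signal in both directions after DDE. By limma, with p-values adjusted over all 42957 probes and a threshold of 0.05, 14 of the 24 Cyp2c probes rose, 2 fell and 8 did not pass, while 2.34% of all probes rose and 0.661% fell. Without DDE 2, 9 Cyp2c probes rose and 1 fell. With the replicate number as a block, where few of all probes passed, 1 Cyp2c probe rose, that of Cyp2c39 (limma adjusted p = 0.0497). The falls of Cyp2c67 and Cyp2c68 did not pass there. Before adjustment in the main fit, 18 of the 24 were higher and 5 lower with p under 0.05, against 10.7% and 4.22% of all probes. As 10 of the 24 probes belong to Cyp2c29, the other 14 were also counted alone, and 7 of them rose and 2 fell. At the brightest probe of each gene, 4 of the 10 genes rose (Cyp2c37, Cyp2c38, Cyp2c39 and Cyp2c55), 2 fell (Cyp2c67 and Cyp2c68) and 4 did not pass, against 2.58% and 0.774% of all genes. When any probe of a gene could count, 6 genes rose, with Cyp2c29 and Cyp2c54 added, against 3.35% of all genes, and the same count for falls was 2, against 0.872%. Strong signals were called more often on these arrays: of probes with a control mean of at least 12, 5.04% rose and 3.36% fell, while among the 22 Cyp2c probes above that level 13 rose and 2 fell. The median log2 change was 0.77 over the 24 probes and 0.015 over all probes, and in bulk liver fewer cells of a type and less RNA per cell cannot be told apart.

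**Figure D1:**
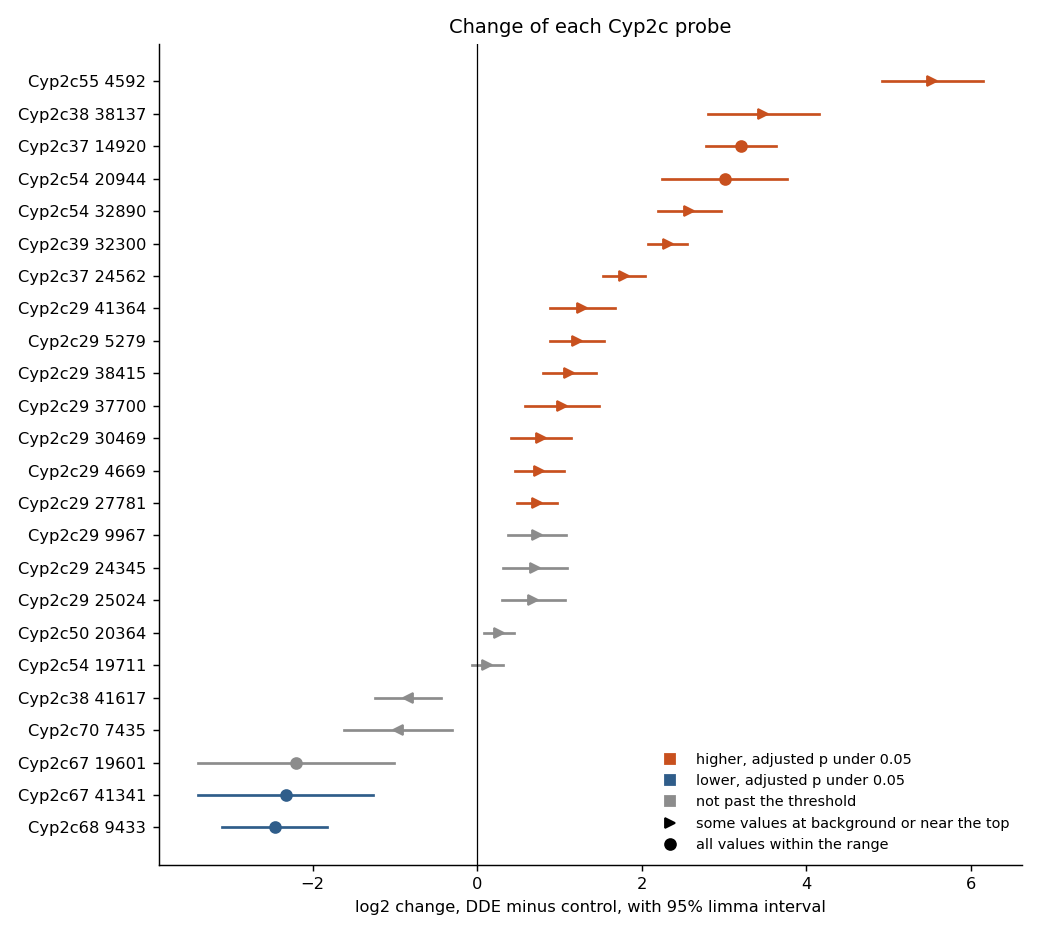
Log2 change (DDE minus control) of each of the 24 Cyp2c probes, named by gene and probe number, with the 95% limma interval. Orange probes rose, blue probes fell and grey probes did not pass the threshold; triangles mark probes with some values at background or near the top of the scale. Fitted changes run from -2.46 (Cyp2c68) to 5.53 (Cyp2c55), and those at triangles are limited by the range of the scale.

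Cyp2c55 had the largest measured change of the family, although the rises of most other members were cut short by the top of the scale. Its enzyme oxidises arachidonic acid and its gene is a known target of CAR and PXR. The signal was 12.22, 13.28, 13.37 and 12.72 in DDE livers, against 7.35, 7.31, 7.18 and 7.62 in control livers. Every DDE liver was far above every control liver, with a gap of 4.60 between the groups. Control values lay at the background level (the 0.95 quantile of probes for olfactory and vomeronasal receptors), so only a lower bound of the fold can be given. Cyp2c55 was at least 20.8-fold higher, or at least 37.3-fold when spots in stained patches were left out of the background level (fitted log2 change 5.53 ± 0.26 SE, limma adjusted p = 0.00044).

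Cyp2c37, an arachidonic acid oxidase, was measured by 2 probes, and both rose. The dimmer probe (14920) had 15.30, 15.58, 14.84 and 15.26 in DDE livers, against 12.03, 11.86, 12.38 and 11.90 in control livers. The groups stood 2.46 apart on the log2 scale, and no value was near the top of the scale, defined as within 0.25 of the highest value of the array. This probe rose 9.21-fold (log2 change 3.20 ± 0.18 SE, limma adjusted p = 0.00131). The brighter probe (24562) had 15.98, 15.97, 16 and 15.99 in DDE livers, against 13.99, 14.21, 14.11 and 14.50 in control livers. All 4 DDE values of the brighter probe were at the top of the scale, so its rise of at least 3.44-fold is a lower bound (limma adjusted p = 0.00152).

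Cyp2c54, whose enzyme forms epoxides of arachidonic and linoleic acid, gave different readings at its 3 probes. The dimmest (20944) had 15.57, 15.46, 14.06 and 15.24 in DDE livers, against 12.09, 12.05, 12.19 and 11.96 in control livers. DDE 3 was low among the DDE livers, yet still 1.87 above the highest control liver. This probe rose 8.06-fold (log2 change 3.01 ± 0.32 SE, limma adjusted p = 0.00911). Of its spots, those of DDE 1, control 2 and control 3 lay in stained patches, and without them the change was 2.895 and no longer passed (adjusted p = 0.0511). The middle probe (32890) had 15.81, 15.28, 15.99 and 15.94 in DDE livers, against 13.31, 13.19, 13.06 and 13.15 in control livers. It rose at least 5.97-fold, as 3 DDE values were within 0.25 of the highest value (limma adjusted p = 0.00158). The brightest probe (19711) had 15.89, 15.73, 15.94 and 15.95 in DDE livers, against 15.63, 15.88, 15.77 and 15.73 in control livers. There the groups overlapped, and the change of 0.13 (95% interval -0.066 to 0.32) did not pass (limma adjusted p = 0.57).

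Cyp2c38 and Cyp2c39 both encode epoxygenases of arachidonic acid, and Cyp2c39 also hydroxylates retinoic acid in mouse liver. The brighter Cyp2c38 probe (38137) had 15.91, 15.88, 15.54 and 15.98 in DDE livers, against 12.45, 12.77, 11.49 and 12.70 in control livers. Control 3 was the lowest control liver and DDE 3 the lowest DDE liver, and the groups were 2.77 apart. The rise was at least 11.1-fold (log2 change 3.475 ± 0.29 SE, limma adjusted p = 0.00501). The other Cyp2c38 probe (41617) was dim and lay in the opposite direction, with 7.91, 7.37, 7.34 and 7.47 in DDE livers, against 8.39, 8.68, 8.09 and 8.30 in control livers. Only 1 DDE liver was above background there, the groups did not overlap, and the change of -0.84 did not pass (limma adjusted p = 0.0506).

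Cyp2c39 had 15.79, 15.63, 15.86 and 15.90 in DDE livers, against 13.43, 13.45, 13.33 and 13.70 in control livers. Its values were close together within each group and 1.93 apart between them. This gave the smallest p of the 24 probes, with a rise of at least 4.98-fold, since 3 DDE values were near the top (log2 change 2.32 ± 0.10 SE, limma adjusted p = 0.000282). The top of the scale also limits how far such DDE values can spread, so the order of p over the probes is not read further.

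Cyp2c29, an epoxygenase and a standard target gene of CAR, already gave a strong signal in control livers. Averaged over its 10 probes, it had 15.97, 15.96, 15.87 and 15.91 in DDE livers, against 15.00, 15.02, 14.83 and 15.26 in control livers. All 10 probes were higher in every DDE liver than in any control liver, and 37 of the 40 DDE values were near the top of the scale, against 2 of the 40 control values. The log2 change ran from 0.69 to 1.28 over the 10 probes, folds of at least 1.61 to 2.43, and 7 of the 10 passed (limma adjusted p from 0.0112 to 0.0806). The SD between the 10 probes on 1 array was 0.24 to 0.49 on control arrays, larger than the SD of 0.18 between the control means, and the probes may be repeats of 1 sequence. Without 1 array the number of probes that passed was 2 without DDE 2, 3 without DDE 1 or without control 2, 4 without DDE 3 or without control 1, 5 without control 3, 6 without DDE 4 and 9 without control 4.

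Cyp2c50, which forms epoxides of linoleic and arachidonic acid, was near the top of the scale in all 4 DDE livers and in 2 of the 4 control livers. Its probe had 16, 16, 15.97 and 16 in DDE livers, against 15.62, 15.89, 15.62 and 15.78 in control livers. Every DDE liver was higher than every control liver, by 0.08 at the closest, with a change of at least 0.265 on the log2 scale that did not pass (limma adjusted p = 0.137). When the stained control 2 spot was left out, the change was 0.32 and passed (adjusted p = 0.0438).

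**Figure D2:**
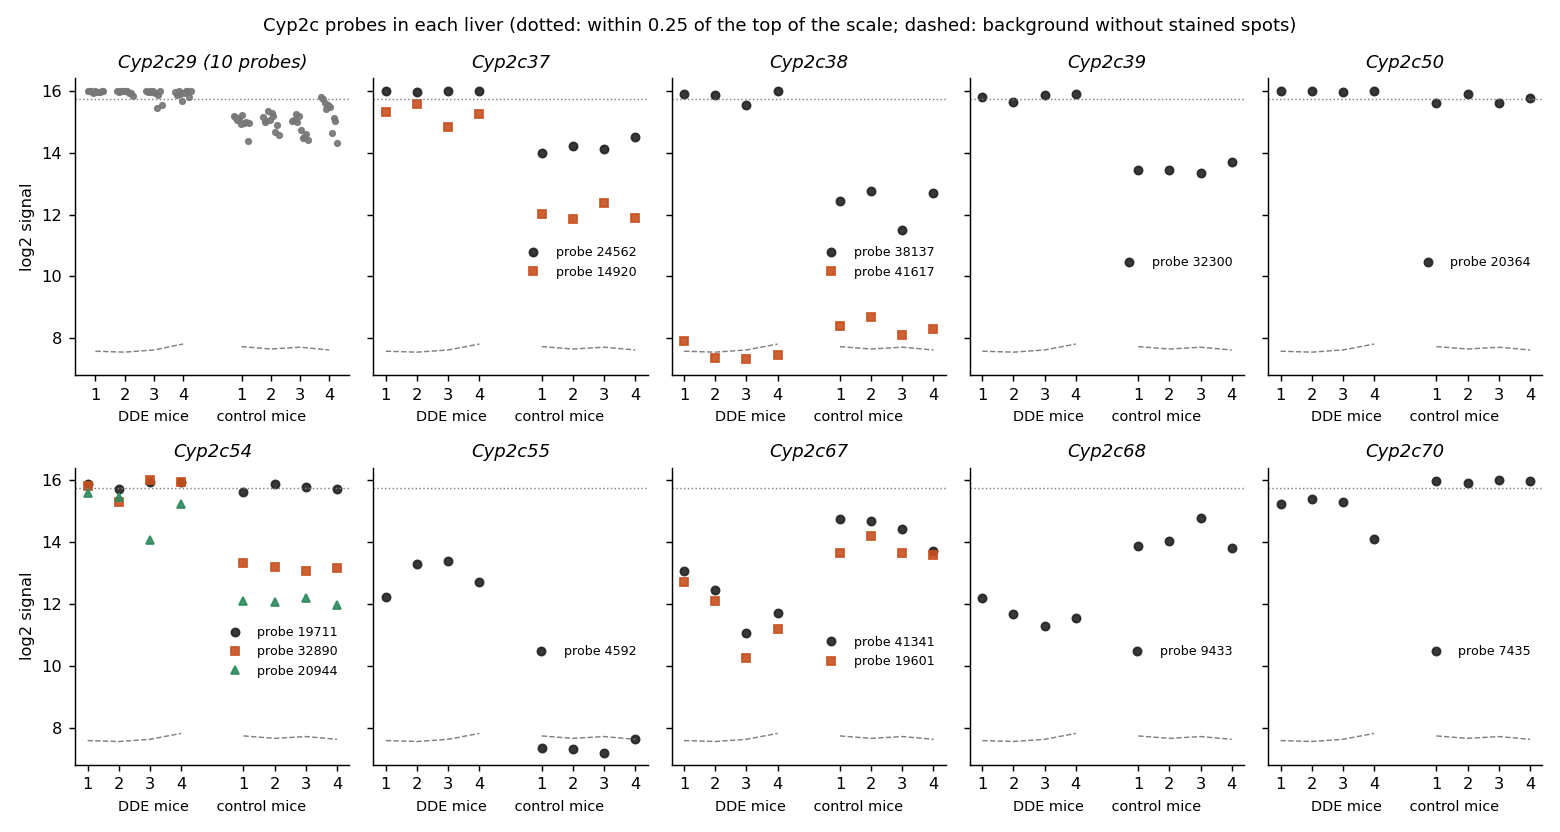
Log2 signal of every Cyp2c probe in each of the 8 livers, 1 panel per gene, with the 4 DDE mice left of the 4 control mice (numbers are replicate numbers and not a series of doses or times). The dotted line is the level within 0.25 of the top of the scale (15.75), and the dashed line is the background of each array without stained spots; Cyp2c67, Cyp2c68 and Cyp2c70 are lower in all 4 DDE livers, and Cyp2c55 is at background in control livers.

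At Cyp2c54 and Cyp2c37, probes with less room below the top of the scale, which was 16 on every array, had smaller measured rises. Room and change are both calculated from the control mean, so they are not independent. At Cyp2c55 the room was 8.635 and the change 5.53. At Cyp2c54 the room above the control mean was 3.93, 2.82 and 0.25 at its 3 probes, and the changes were 3.01, 2.58 and 0.13. At Cyp2c37 the room was 3.96 and 1.80, and the changes were 3.20 and 1.78. The rises of Cyp2c29, Cyp2c37, Cyp2c38, Cyp2c39, Cyp2c50 and Cyp2c54 can therefore not be ranked against each other from the bright probes. Differences of response between 2 probes of 1 gene were tested with exact two-sided permutation over the 8 arrays, whose smallest possible p is 0.0286. Of the 51 such pairs, 0 passed after Benjamini-Hochberg adjustment (lowest adjusted p = 0.121), and 12 reached the smallest possible p, among them the Cyp2c37 pair, the Cyp2c38 pair and both pairs of Cyp2c54 that include its brightest probe. A pass over 51 pairs needed far more than 12 pairs at the smallest p, so the count of 0 does not show that probes of a gene agree.

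**Figure D3:**
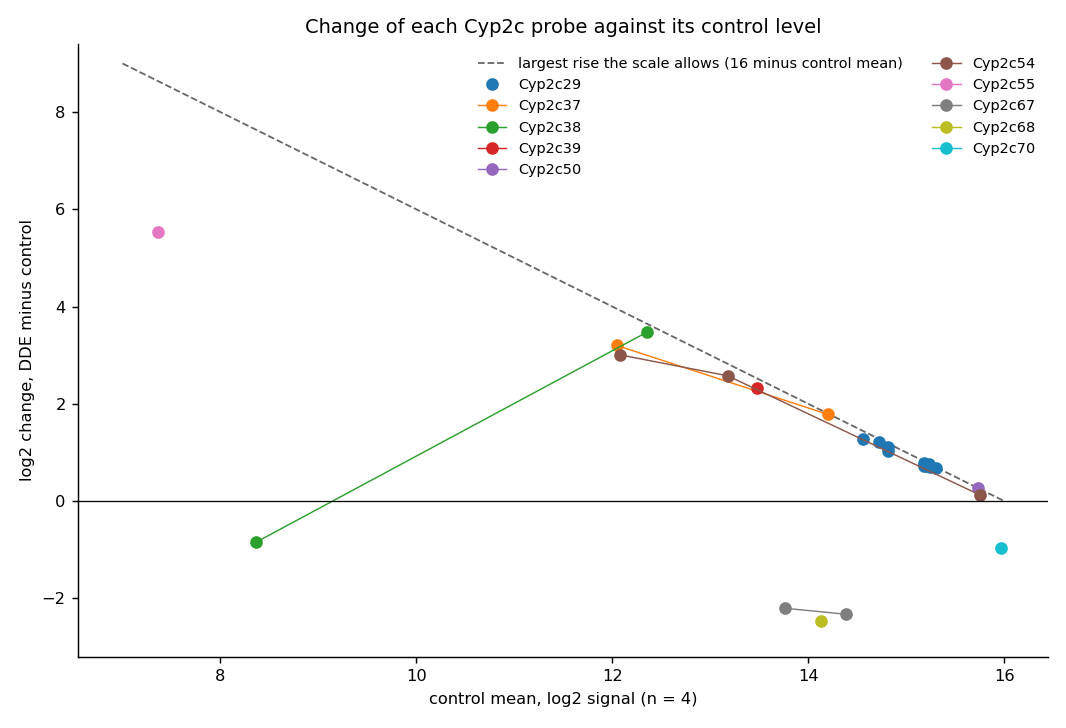
Log2 change (DDE minus control) of each of the 24 Cyp2c probes against its control mean (log2 signal, n = 4), with thin lines joining probes of 1 gene. The dashed line is the largest rise that a scale ending at 16 allows; probes of Cyp2c29, Cyp2c37, Cyp2c38, Cyp2c39, Cyp2c50 and Cyp2c54 with strong control signals lie along it, and Cyp2c67, Cyp2c68 and Cyp2c70 lie below 0.

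Cyp2c68 fell most. Its probe had 12.19, 11.66, 11.29 and 11.55 in DDE livers, against 13.88, 14.04, 14.79 and 13.82 in control livers. The highest DDE liver was 1.63 below the lowest control liver, and all values were within the range of the scale. The signal fell 5.502-fold (log2 change -2.46 ± 0.27 SE, 95% interval -3.10 to -1.82, limma adjusted p = 0.00932).

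Cyp2c67 was lower in DDE livers at both of its probes. The brighter (41341) had 13.05, 12.44, 11.05 and 11.70 in DDE livers, against 14.73, 14.67, 14.42 and 13.72 in control livers. DDE 3 was the lowest liver and control 4 the lowest control, with 0.67 between the groups. It fell 5.01-fold (log2 change -2.325 ± 0.45 SE, limma adjusted p = 0.0445), and the call was lost without DDE 2 (adjusted p = 0.106), DDE 3 (0.0791), DDE 4 (0.0793), control 1 (0.1), control 2 (0.124) or control 3 (0.114), with changes between -1.99 and -2.655 in all 8 fits without 1 array. The dimmer probe (19601) had 12.70, 12.09, 10.25 and 11.20 in DDE livers, against 13.65, 14.18, 13.63 and 13.59 in control livers. Its groups were 0.89 apart, but its change of -2.20 ± 0.51 SE did not pass (limma adjusted p = 0.0736). The 2 Cyp2c67 probes differed in change by -0.12, which was within the spread of the arrays (exact permutation p = 0.629).

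Cyp2c70, the muricholic acid enzyme, had 15.22, 15.40, 15.28 and 14.11 in DDE livers, against 15.97, 15.92, 15.99 and 15.98 in control livers. All 4 control values were at the top of the scale, and all 4 DDE values were lower, with DDE 4 far below the other DDE livers. The signal was at least 1.95-fold lower (log2 change -0.96 ± 0.28 SE), which did not pass (limma adjusted p = 0.135). Without DDE 4 the change was -0.665 and passed (adjusted p = 0.0112). A fall from the top of the scale was not rare: among 167 probes with a control mean of at least 15.75, every DDE value was below every control value at 15.0%, 9 of them, Cyp2c70 included, changed by at least as much, and 3.59% fell past the threshold. Their median change was -0.075.

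The groups did not overlap at 23 of the 24 Cyp2c probes, against 11.8% of all probes. All 10 Cyp2c29 probes, which may be repeats of 1 sequence, are among the 23. Lower in every DDE liver were the probes of Cyp2c67, Cyp2c68 and Cyp2c70 and the dim Cyp2c38 probe. In all 8 fits that left out 1 array, 10 probes passed throughout: those of Cyp2c37, Cyp2c39, Cyp2c55 and Cyp2c68, the bright probe of Cyp2c38, the dimmer pair of Cyp2c54, and probes 38415 and 5279 of Cyp2c29. This count has no share over all probes beside it and is not read as a trait of the family.

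Differences in response between genes were tested for the 45 pairs, by comparing the difference between the brightest probes of the pair between DDE and control arrays (exact two-sided permutation, Benjamini-Hochberg adjusted over the 45). All 21 pairs of Cyp2c67, Cyp2c68 or Cyp2c70 with 1 of the other 7 genes passed (exact p = 0.0286, the smallest this design allows, adjusted p = 0.0321), and all 21 also passed with the same sign when the probes of a gene were averaged. The falling genes were picked from these same values. Where 1 gene of a pair was lower and the other higher in every DDE liver, the smallest p was fixed in advance. Such a pass, here and at the probes compared below, adds nothing to the lack of overlap at each gene. Sizes of the differences between genes are not given where a probe was near the top of the scale or at background. At probes with all values within the range, the rise of Cyp2c37 was 5.53 above the change of Cyp2c67 and 5.66 above that of Cyp2c68 on the log2 scale, and the rise of Cyp2c54 was 5.335 and 5.47 above them (exact permutation, adjusted p = 0.033 over 15 pairs of genes with a probe that never came near the top). At the same probes Cyp2c37 and Cyp2c54 differed by 0.19, less than the spread between mice (adjusted p = 0.612). Cyp2c67 and Cyp2c68 differed by 0.135 in change, also within that spread (adjusted p = 0.629). Among the 7 genes that were higher after DDE, 18 of the 21 pairs passed, but 6 of these 7 brightest probes were near the top of the scale in DDE livers, so the difference of such a pair repeats how far apart their control levels were. With averaged probes 17 of these 21 pairs passed, 6 turned their sign and 7 changed their call, and no order of response among these genes is read from them. Cyp2c67 and Cyp2c70 did not pass at the brightest probes (adjusted p = 0.0627) and passed with averaged probes (adjusted p = 0.0321).

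Within the DDE group the mice were not ordered alike at all members, which is given here as a description of 4 mice with no test. DDE 3 had the lowest value and DDE 1 the highest at both Cyp2c67 probes and at Cyp2c68. At Cyp2c55 these extremes were swapped, with DDE 3 highest and DDE 1 lowest. DDE 3 was also lowest at Cyp2c38 (both probes), at the dimmer Cyp2c37 probe and at the dimmest Cyp2c54 probe, while at Cyp2c70 the lowest was DDE 4. Of the 192 Cyp2c spot values, 9 lay in stained patches, at 7 probes, and none of these was at Cyp2c55, Cyp2c68, Cyp2c70 or either Cyp2c38 probe.

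The annotation held 3 more Cyp2c genes, each with 1 probe. Cyp2c65, a relative of Cyp2c55 best known from the gut, had 8.62, 9.39, 10.26 and 9.77 in DDE livers, against 7.35, 7.14, 7.60 and 7.29 in control livers. The 4 DDE livers were above background and the 4 control livers were not, and it rose at least 1.98-fold, or at least 3.56-fold with the background level free of stained spots (fitted log2 change 2.165, limma adjusted p = 0.0228). Cyp2c66 had 8.12, 8.91, 9.68 and 8.39 in DDE livers, against 7.63, 7.73, 7.60 and 7.28 in control livers. Its groups did not overlap, but it did not pass (fitted log2 change 1.215, limma adjusted p = 0.115). As at Cyp2c55, DDE 3 was highest and DDE 1 lowest at both of these genes, but the DDE 1 spot of Cyp2c65 lay in a stained patch. Cyp2c23, an epoxygenase, had 14.39, 13.73, 13.64 and 14.42 in DDE livers, against 14.94, 15.10, 15.14 and 14.70 in control livers. All DDE values were lower, by 0.28 at the closest, and the change of -0.925 did not pass (limma adjusted p = 0.0763).

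Genes around the Cyp2c enzymes were counted in lists at the brightest probe of each gene, where 2.58% of all genes rose and 0.774% fell, and 11.4% were higher and 4.57% lower with p under 0.05 before adjustment. Among 25 receptors and liver transcription factors, 2 rose and 0 fell (before adjustment 6 and 4 had p under 0.05), and the median change was 0.08. The 2 were Nr1h4, the bile acid receptor FXR, which rose 1.65-fold (limma adjusted p = 0.0344), and Nr1i2, the gene of PXR. Nr1i2 was dim, with 8.21 ± 0.11 in DDE livers and 7.59 ± 0.09 in control livers (SD, n = 4 each, limma adjusted p = 0.0153), and no fold is given because control livers were at background. Nr1i3, the gene of CAR, had 10.90 ± 0.50 in DDE livers and 10.33 ± 0.76 in control livers and did not pass (limma adjusted p = 0.617). The hepatocyte factor Hnf4a had 12.85 ± 0.36 in DDE livers and 12.91 ± 0.32 in control livers (limma adjusted p = 0.911).

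In the list of electron donors and heme supply, on which every cytochrome P450 depends, 2 of 15 genes rose and 0 fell, against 2.58% and 0.774% of all genes (before adjustment 4 and 0), and the median change was 0.255. Ppox, an enzyme late in heme synthesis, rose at least 2.34-fold (10.40 ± 0.13 in DDE livers and 8.895 ± 0.10 in control livers, limma adjusted p = 0.00144). Pgrmc1, a heme-binding partner of these enzymes, rose 1.90-fold (limma adjusted p = 0.0243). Alas1, the first step of heme synthesis, had 15.54 ± 0.28 in DDE livers and 12.99 ± 1.44 in control livers, and with this wide control spread it did not pass (limma adjusted p = 0.105).

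Among 30 genes of arachidonic acid release and oxidation, 4 rose and 1 fell, against 2.58% and 0.774% of all genes (before adjustment 7 and 3), and the median change was 0.11. The phospholipase genes Pla2g12a and Pla2g6 rose at least 2.72-fold and at least 2.51-fold (limma adjusted p = 0.0354 and 0.00911). Cyp4a12a, a fatty acid omega-hydroxylase, rose 2.03-fold and Cyp2j6 at least 1.98-fold (limma adjusted p = 0.00887 and 0.0411), and Cyp4f14 fell 1.49-fold (limma adjusted p = 0.0269). Ephx2, the gene of soluble epoxide hydrolase, had 9.86 ± 0.55 in DDE livers and 10.83 ± 0.32 in control livers (limma adjusted p = 0.156). Of 24 genes of bile acid synthesis and transport, the group in which Cyp2c70 works, 1 rose and 1 fell, against the same 2.58% and 0.774% (before adjustment 3 and 7, against 11.4% and 4.57%), and the median change was -0.11. The uptake transporters Slco1a4 and Slco1b2 were these 2, the first at least 6.02-fold higher and the second 1.73-fold lower (limma adjusted p = 0.00755 and 0.0352).

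Of 25 other Cyp2 genes, 4 rose and 1 fell, against 2.58% and 0.774% of all genes (before adjustment 7 and 3), and the median change was 0.048. Cyp2b10, the standard CAR target, had 15.94, 15.94, 15.99 and 16 in DDE livers, against 8.79, 8.82, 8.87 and 9.57 in control livers. It rose at least 117-fold (limma adjusted p = 2.44e-05), Cyp2b9 at least 13.7-fold (24.6-fold with the background level free of stained spots) and Cyp2a4 at least 29.3-fold (limma adjusted p = 0.000282 and 0.00676). Cyp2d9 rose 2.29-fold and Cyp2u1 fell 2.07-fold (limma adjusted p = 0.00932 and 0.0485). Over all named genes at their brightest probe the median change was 0.015.

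**Figure D4:**
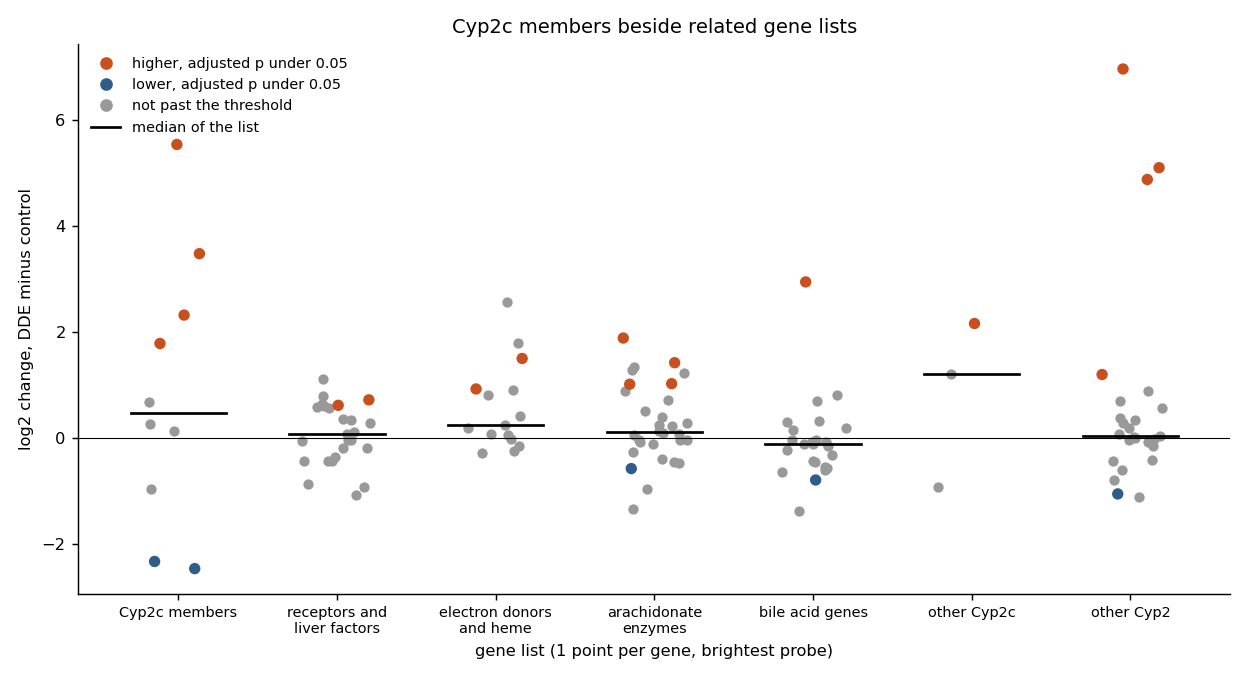
Log2 change (DDE minus control) of each gene at its brightest probe, for the 10 Cyp2c members and 6 related lists; orange points rose, blue points fell, grey points did not pass the threshold, and the bar is the median of the list. The fitted changes of the Cyp2c members span -2.46 to 5.53 with a median of 0.475, and the list medians of the other groups except the 3 other Cyp2c genes lie between -0.11 and 0.255.

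The gene with the most similar profile over the 8 arrays was looked up for each member among 6525 named genes above background on all arrays of a group, by Pearson's r at the brightest probes, as a description only, since the points share arrays and r mainly follows the difference between the groups, in whose direction each match must lie. For Cyp2c37 and Cyp2c39 it was Cyp2b10 (r = 0.996 and 0.998). For Cyp2c55 it was Cyp2b9 (r = 0.998). Cyp2c55 and Cyp2b9 were at background in all 4 control livers, so Cyp2b9 was a candidate only through the DDE group. Cyp2b10 was above background in 4 DDE livers and 3 control livers, so by this level it too was a candidate only through the DDE group. By the level free of stained spots it was above background in all 4 control livers. For Cyp2c29 it was the retinaldehyde dehydrogenase gene Aldh1a1 (r = 0.982), for Cyp2c38 the predicted gene Gm5863 (r = 0.990), for Cyp2c50 the retinol dehydrogenase gene Rdh9 (r = 0.957) and for Cyp2c54 Cyp4a10 (r = 0.935). The others were Cyp7b1, an oxysterol hydroxylase, for Cyp2c67 (r = 0.989), the glutamine synthetase gene Glul for Cyp2c68 (r = 0.984) and Akr1c6, a hydroxysteroid dehydrogenase, for Cyp2c70 (r = 0.987). Of these 3, Glul passed the test with a change of -1.16 (limma adjusted p = 0.0136), while Cyp7b1 (-1.375, adjusted p = 0.0578) and Akr1c6 (-0.64, adjusted p = 0.25) did not.

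Array quality and tissue make-up were checked once for all results. Markers were counted at the brightest probe of each gene, where 2.58% of all genes rose and 0.774% fell. Stained patches covered 0.521% to 7.59% of the spots on DDE arrays and 1.16% to 9.5025% on control arrays, and without them the background level lay between 7.55 and 7.81. All 9 measured hepatocyte markers were above background on every array, with a mean log2 signal of 14.67 to 14.99 in DDE livers and 14.82 to 15.07 in control livers, and 1 of them, Apoa1, fell. As 6 of the 9 had values near the top of the scale, these means could hardly move. The other 3 did not pass, with Cps1 at 11.43 ± 0.61 in DDE livers and 11.31 ± 0.91 in control livers, Pck1 at 13.28 ± 0.36 in DDE livers and 13.22 ± 0.83 in control livers, and Asgr1 at 14.41 ± 0.33 in DDE livers and 14.81 ± 0.15 in control livers (SD, n = 4 each). The 6 cholangiocyte markers averaged 7.43 to 7.60 in DDE livers and 7.57 to 8.77 in control livers, and 0 of them was above background on all arrays. For Kupffer cells the 9 markers averaged 8.78 to 9.20 in DDE livers and 8.59 to 9.67 in control livers, and 0 passed. The 9 markers of sinusoidal endothelium averaged 10.001 to 10.11 in DDE livers and 9.88 to 10.23 in control livers, and the 9 leukocyte markers 8.75 to 9.20 in DDE livers and 8.62 to 9.57 in control livers, with 0 passed in either. Stellate cell markers averaged 9.18 to 9.63 in DDE livers and 8.81 to 9.18 in control livers. Of these 9 markers 1, Reln, passed as higher at values near background. Before adjustment 5 of the 9 were higher and 1 lower with p under 0.05, against 11.4% and 4.57% of all genes. The median change of the 9 was 0.38. Among them Col3a1 changed by 1.07, Colec11 by 0.83, Col1a1 by 0.62 and Dcn by -0.96 on the log2 scale, none past the threshold. The part of stellate cells in the Cyp2c results was not tested. Nothing in the labels says whether the 4 mice of a group were housed or processed apart, so the p-values measure the spread between these 8 samples.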

How the data were processed

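Per the labels' protocols, Cy3-labelled RNA made from total liver RNA was hybridised to 1-colour Agilent arrays. The deposited table holds log2 signals that the authors had normalized, with 42957 probes on 8 arrays and a median of 7.46 or 7.47 on each. The scanner and the methods of background correction and normalization were not stated. Values were used as deposited. The supplied annotation names 33009 probes and leaves 9948 unnamed. Probes were designed on reference mouse sequence, so Mus spretus transcripts may bind less well, and related Cyp2c transcripts may bind each other's probes. Probe sequences and genome positions were not used here, so genes beside the Cyp2c cluster were not examined.

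All probes were fitted with limma 3.58.1 (lmFit, eBayes) in R 4.3.3, DDE minus control, without covariates, two-sided, with Benjamini-Hochberg adjustment. The procedure was tested on simulated independent, normal values with known changes. These had no top of the scale, background level or stained patches, so that test does not cover such limits. Differences between probes or genes were tested by exact permutation over the 70 splits of the arrays. A fold is a lower bound where a value of the dimmer group was at background or a value of the brighter group within 0.25 of the top of the scale; values below background were raised to it. Spots were called stained where the median deviation in 7 rows by 5 columns was beyond 0.3. Members, lists and tests were chosen with earlier results of these data known. Named genes were all members, the 4 largest changes past the threshold in each list, the most similar gene of each member and Cyp2b10, and Cyp4f14, Nr1i3, Hnf4a, Alas1, Ephx2, Cyp2u1, Cyp2c66, Cyp2c23, Apoa1, Reln, Col1a1, Col3a1, Colec11, Dcn, Cps1, Pck1 and Asgr1 were added after their values were seen. Alternatives were other normalizations, filters, variance models, array weights, a replicate block, leaving out arrays or stained spots and averaging probes.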

Additional observations from a re-analysis of the deposited data

Results flagged for a closer look

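Of the 48 groups of 4 values (24 Cyp2c probes in DDE and in control livers), 6 held a value that stood apart from the other 3 by Dixon's ratio at the 95% critical value. That rule flags about 1 in 20 groups of independent, normal values. Groups pressed against the top of the scale and probes of 1 gene are not such values, so the 6 are not read as an excess. At Cyp2c70, DDE 4 had 14.11, the lowest of its group, and without it the change passed the threshold. At Cyp2c29, DDE 4 was lowest at probe 24345 (15.86) and probe 9967 (15.66), and DDE 3 was lowest at probe 37700 (15.45). At Cyp2c50, DDE 3 was lowest with 15.97, where the other DDE values were all at the top of the scale. At the dimmer Cyp2c67 probe (19601), control 2 was highest with 14.18, and that spot lay in a stained patch.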

How the results depend on the processing

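Under 20 alternatives no Cyp2c probe turned its direction. Quantile normalization, centring on the 75th percentile and averaging the probes of a gene kept the counts of Cyp2c probes and genes within 1.5 times. The counts of Cyp2c probes that rose (14) and fell (2) were otherwise as follows. With an intensity trend and robust variance, or with ordinary t statistics, 1 probe and 1 gene fell, and with probes above background only, by either background level, 4 probes fell. Without 1 array, 9 (without DDE 2) to 16 (without control 4) probes rose and 1 to 3 (without DDE 1) fell, and at the brightest probe 4 to 5 genes rose and 1 to 2 fell. Over all probes, 1005 rose and 284 fell, against 399 and 112 with the trend, 424 and 95 with ordinary t statistics, 1607 and 533 with array weights, 1626 and 563 with probes above the stain-free background, 271 to 1362 and 61 to 428 without 1 array (lowest without DDE 2, highest without DDE 4 and without control 4). Without control 4 and DDE 4 443 fell, and with stained spots left out before quantile normalization 1091 fell. Of the 45 gene pairs 40 passed, also with averaged probes, where 6 pairs turned their sign. Only 6 genes had a probe below the top of the scale, and 13 of their 15 pairs passed. For Cyp2c38 that was the dim probe 41617, which changed by -0.84, opposite to its bright probe. For Cyp2c54 it was probe 20944, with 3 stained spots, so these are not the same contrasts as at the brightest probes. The cause of the other shifts was not tested.

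Calls in the lists moved too. For receptors and factors (2) they were 0 with the trend, 1 with ordinary t statistics, 4 with stained spots out and quantile normalization, and 1 to 3 without 1 array. For electron donors and heme (2) they were 4 with either background filter, 1 with ordinary t statistics or without control 4 and DDE 4, and 1 to 2 without 1 array. For arachidonic acid (5) they were 3 with the trend, with ordinary t statistics or without control 4 and DDE 4, 9 with stained spots out and quantile normalization, and 2 (without DDE 1, DDE 2 or control 3) to 6 without 1 array. For bile acids (2) they were 4 with either background filter, 1 with the trend or ordinary t statistics, 5 with stained spots out and quantile normalization, and 1 to 2 without 1 array. For the other Cyp2c genes (1) they were 2 and 3 with the background filters, 0 with ordinary t statistics or without control 4 and DDE 4, 2 with stained spots out and quantile normalization, and 0 (without DDE 2, control 1, control 2 or control 3) to 1 without 1 array. For the other Cyp2 genes (5) they were 4 without any 1 array. The background filters by the stain-free level, stained spots out with quantile normalization and that level itself were chosen after seeing the data.

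Same-numbered arrays had correlations of their deviations from the group means of 0.348, 0.242, 0.209 and -0.119 over 9423 probes. Arrays of different numbers had -0.305 to 0.267. DDE 1 and DDE 2 correlated best with the control array of the same number, DDE 3 with control 4 (0.267) and DDE 4 with control 1 (0.21). Whether the replicate numbers pair the samples is not settled by these values. With the replicate number as a block, 1 Cyp2c probe and 1 gene rose and 0 fell, over all probes 8 rose and 1 fell, and the lists had 0 calls except 1 among the other Cyp2 genes. The number of arrays limits the precision, and signals at background or at the top of the scale give bounds only.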
